A study of Homo sapiens with 6 samples.

Results

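Simple repeats with units of 1 to 4 bases, the microsatellites, were followed in RNA bound to the chromatin of H9 cells, an established human embryonic stem cell line. Members were all entries of the count table named as a unit in brackets followed by n, with a unit of at most 4 bases. There were 330 of them among 15641 entries. They comprised 4 units of 1 base, 14 of 2 bases, 64 of 3 bases and 248 of 4 bases. Of these, 20 are written with a unit that is itself a shorter unit repeated, such as (TT)n. The 3 naive libraries (Nchr) carry the treatment label naive and the 3 primed libraries (Pchr) the label primed. All 6 libraries share the cell line and, in the labels, a growth protocol in RSeT medium that maintains a naive state, so the primed state rests on the treatment label alone. No labelled difference other than the state separates the groups, and no label ties the libraries to separate cultures. The p-values therefore set the difference between the groups against the scatter of these libraries alone, and part of that scatter may be technical. The 7 protein-coding markers of pluripotent states that were looked for matched 0 entries, since the table counts repeats, so the labelled cell type was not checked by genes.

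Microsatellites are tandem runs of a short unit that change length easily when the replication machinery slips. The same tract can be named by any rotation of its unit, depending on the base at which it starts. Read from the opposite strand, it carries the reverse complement. Runs of A or T are often the tails of retrotransposed elements such as Alu. Triplet repeats such as CAG and CGG also occur inside genes, and their expansion is known to cause inherited disease. Each entry of the table sums all genomic copies with that name. Its level thus reflects copy number and tract length as well as transcription, and has no single coordinate.

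The units on which the results turn are written as 4 copies, 5′ to 3′ on the strand that gives the entry its name, with the first copy in capitals. First come triplets that fell in naive libraries relative to primed ones:
Triplet of G and C alone, (GCG)n: GCGgcggcggcg
Abundant triplet with a CpG, (CGT)n: CGTcgtcgtcgt
Triplet of C and T with a high GC share, (CCT)n: CCTcctcctcct
Triplet of C and T with a low GC share, (TTC)n: TTCttcttcttc
Triplet of mixed bases, (TCA)n: TCAtcatcatca
Triplet known from Huntington disease, (CAG)n: CAGcagcagcag

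Next are 4-base units that fell, with (AATT)n shown because it is the same tract as (TTAA)n begun at another base:
Unit with the largest fall, (GGAC)n: GGACggacggacggac
Unit with the smallest p, (TTAA)n: TTAAttaattaattaa
Its rotation, (AATT)n: AATTaattaattaatt
Unit of the changed strand pair, (AGTA)n: AGTAagtaagtaagta

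Last are the pyrimidine units whose counts moved with ribosomal RNA. (CTCC)n and (CCTC)n are rotations of each other, and (GAAA)n is the reverse complement of (TTTC)n:
Most abundant unit, (TTTC)n: TTTCtttctttctttc
GC-rich pyrimidine unit, (CTCC)n: CTCCctccctccctcc
Its rotation, (CCTC)n: CCTCcctccctccctc
Opposite strand of the most abundant unit, (GAAA)n: GAAAgaaagaaagaaa

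Library totals ran from 7192242 to 17791046 counts in 5 libraries and came to 118793 in primed library 2. In that library 3 counts correspond to 16.8 CPM, where CPM is counts per 1000000 after TMM scaling, the scale used for all levels here. In the other libraries 3 counts are worth 0.211 to 0.380 CPM. Primed library 2 registered 210 of the 330 members, and the others 311 to 322. Members listed at 0 in every library numbered 6. The 278 members that passed the filter on low counts held between 99.89% and 99.98% of member counts in each library. Among 213 members with a mean of at least 5 CPM, primed library 1 was the highest of its group for 141 and primed library 2 the lowest for 154.

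Short simple repeats took a smaller mean share of all counts in naive libraries. Their share was 2.77%, 1.96% and 1.93% in naive 1 to 3, compared with 5.13%, 3.68% and 4.26% in primed 1 to 3. Every naive library lay below every primed library. For primed library 2, the shallowest, a 95% Wilson interval ran from 3.58% to 3.79%, covering counting error only. Means were 2.22% ± 0.481 and 4.36% ± 0.731 (SD, n = 3), and an exact two-sided permutation test gave p = 0.1, the smallest that 3 against 3 allows. When alpha satellite and ribosomal RNA, which differ in share between the libraries, were left out of the total, the groups overlapped. The shares were then 4.04%, 3.79% and 2.95% against 6.26%, 3.86% and 4.64% (exact permutation p = 0.2). Within all simple repeats the short units held 69.2% ± 2.88 of counts in the naive group and 69.01% ± 1.40 in the primed group (SD, n = 3 each, p = 0.9 by exact permutation).

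Counts were concentrated in few units. Between 8 and 11 entries held 50% of member counts in each library, and the 10 entries with the highest mean level held 40.5% to 54.4%. The highest mean levels were those of (TTTC)n, at 3182 CPM, then (CCCG)n, at 2338 CPM, and (T)n, at 2289 CPM.

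Units of 3 bases took a smaller mean part of member counts in naive libraries, and the other unit lengths overlapped between the groups. The 3-base part was 20.7%, 19.2% and 22.4% in naive 1 to 3, compared with 24.2%, 25.5% and 26.1% in primed 1 to 3. All naive values were below all primed values. The means were 20.8% ± 1.59 and 25.3% ± 0.966 (SD, n = 3; exact permutation p = 0.1, adjusted over 4 lengths 0.4). The difference of -4.52 percentage points ranged from -5.33 to -3.74 when any 1 library was left out. Units of 1 base held 14.3% ± 0.664 and 16.1% ± 2.64 (SD, n = 3; exact permutation p = 0.3). Units of 2 bases held 23.1% ± 4.48 and 18.3% ± 3.28 (exact permutation p = 0.3), with naive library 3 the highest at 28.3%. With the most abundant member, (TTTC)n, left out, the 2-base shares no longer overlapped, while the 1-base and 4-base shares still did. The 2-base shares were then 22.9%, 23.7% and 28.6% in naive and 17.6%, 22.6% and 20.4% in primed libraries (exact permutation p = 0.1, not adjusted over the lengths). Units of 4 bases held 41.8% ± 6.17 and 40.3% ± 5.77 (exact permutation p = 0.7), and the sign of that difference turned when naive library 2 (-0.92 points) or primed library 2 (-1.58 points) was left out.

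**Figure D1:**
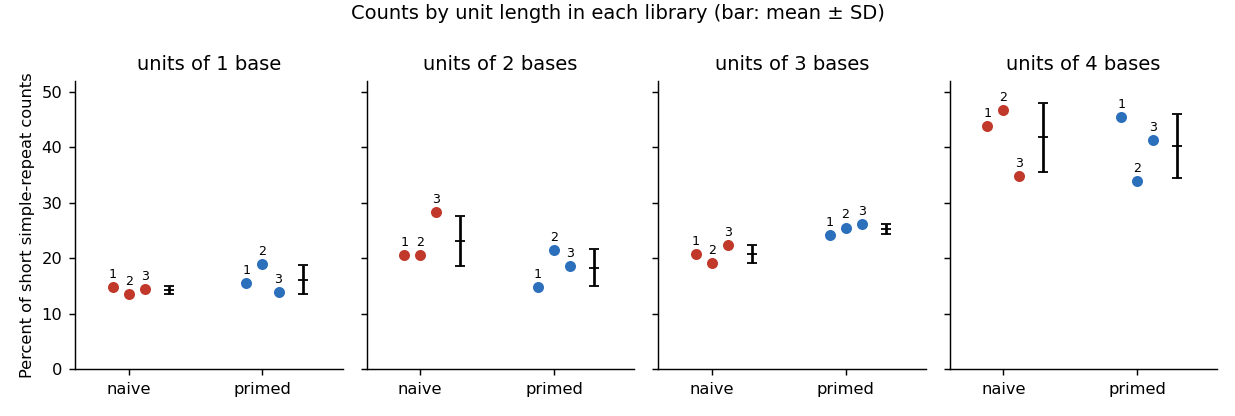
Percent of all counts in short simple repeats held by units of 1, 2, 3 and 4 bases, with 1 point per library (numbered by replicate; naive red, primed blue) and the mean ± SD as a bar. In the 3-base panel the naive points lie between 19.2% and 22.4% and the primed points between 24.2% and 26.1%, while the groups overlap in the other panels.

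Entry by entry, 36 of the 278 tested members fell in naive libraries, 1 rose and 241 did not pass (edgeR quasi-likelihood test, Benjamini-Hochberg adjusted over 3219 entries, threshold 0.05). None of these calls held without primed library 1, as detailed after the unit classes. Over all tested entries 12.7% were called, 7.77% lower and 4.94% higher. Of the members 13.3% were called, near that background, and 12.9% were called lower. Their median log2 change was -0.13, against -0.00 for all entries, 0.21 for the 1265 named repeats tested and -0.37 for the 1676 longer simple repeats tested. In levels, 47 tested members had all naive libraries below all primed ones (background 11%) and 24 had them above (background 19.4%).

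The 3-base units held 22 of the 36 lower calls, among 61 tested, with 0 higher calls. Of the 200 tested 4-base units, 13 fell and 1 rose; of the 13 tested 2-base units, 1 fell; of the 4 single-base units, 0 passed. Median log2 changes were -0.70 for 3-base units and -0.07 for 4-base units. Across the upper limit of unit length, the 335 tested 5-base units had 27 lower and 6 higher calls and a median of -0.21. Units of 6 bases had 123 of 850 called lower (median -0.49), of 7 bases 41 of 458 (median -0.34), of 8 bases 3 of 18 (median -0.88) and of 9 bases 5 of 11 (median -1.06). The share called lower was thus 36.1% for triplets and 45.5% for the few 9-base units.

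GC share of the unit divided the calls further. Of 92 tested units with a GC share above 50%, 27 fell and 0 rose, with a median log2 change of -0.74 and 80 of them below 0. Of 27 tested units without G or C, 1 fell, with a median of 0.02. The 81 units with 1 G or C in 3 or 4 bases had 7 lower calls and a median of -0.01. The 78 units of 50% GC had 1 lower and 1 higher call and a median of -0.03. Weighted by counts, the mean GC share of member RNA was 45.9%, 45.5% and 41.6% in naive 1 to 3, compared with 48.6%, 44.6% and 51.1% in primed 1 to 3. These values overlapped (exact permutation p = 0.3).

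Both features met in the GC-rich triplets. All 30 tested triplets with 2 or 3 G or C bases had a log2 change below 0, and 16 of them passed. Their changes ran from -1.63 to -0.46, with a median of -0.85. Rotations of the same unit and both its strands count separately here, so these 30 entries are not 30 independent units. With all rotations on a strand summed, the changes ran from -1.37 to -0.63. Some of these sums passed and others did not (edgeR adjusted p from 0.0140 to 0.170). Of the 24 tested triplets with 1 G or C, 6 fell, with a median of -0.37, and for the 7 with none the median was 0.03 and 0 passed. GC-rich 4-base units had 10 lower calls among 58 and a median of -0.61. The GC-rich units were also divided by whether they hold a CpG, counting the junction between copies; the difference was not tested. Of the 4-base units 9 of 26 with a CpG were called lower (median log2 change -0.76) and 1 of 32 without, (CCAG)n (median -0.52). Of the triplets 4 of 11 with a CpG were called lower (median -0.90) and 12 of 19 without (median -0.82), so the calls and the medians did not order alike. For comparison, GC-rich units of 5, 6 and 7 bases had 21 of 146, 74 of 347 and 26 of 171 called lower, with medians of -0.59, -0.80 and -0.64. GC-rich units of 8 and 9 bases, with 6 tested of each, had 2 and 3 called lower and medians of -1.21 and -0.90. Whether triplets differ from other lengths of the same GC share was not tested.

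**Figure D2:**
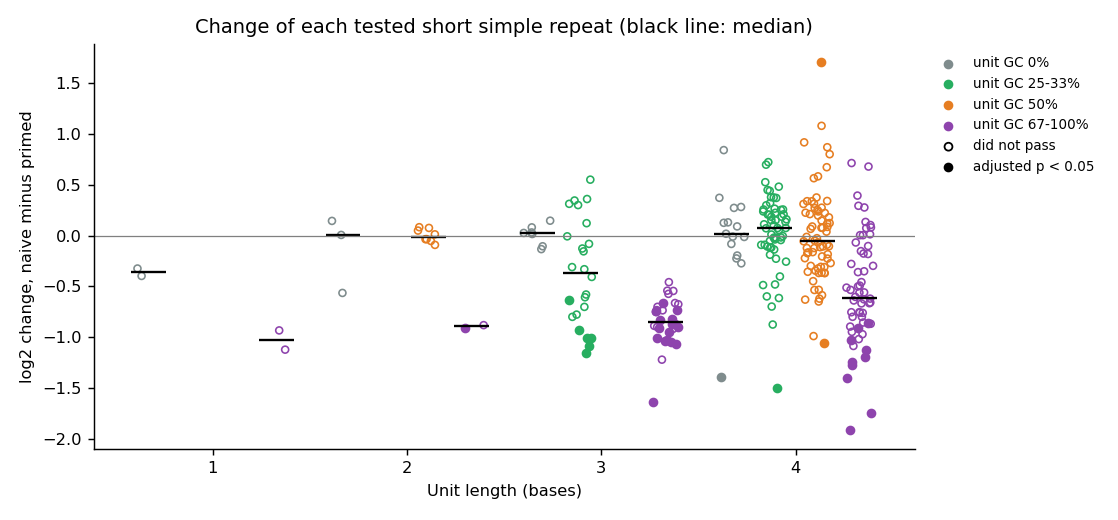
log2 change (naive minus primed) of the 278 tested short simple repeats by unit length in bases, with 1 point per entry, coloured by the GC share of the unit. Filled points passed the test and black lines are medians; the GC-rich triplets lie wholly below 0, around a median of -0.85.

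None of these calls was made when primed library 1 alone was left out. The primed group then held only primed library 3 and primed library 2, the latter with 118793 counts. Whether the calls were lost through this shallower group was not tested. In that fit 0 of 286 tested members were called (edgeR adjusted p, smallest 0.0656), while 4 were higher and 40 lower at an unadjusted p under 0.05. Over all entries 0.432% were called in that fit, 0.202% lower. The 36 members called lower with 6 libraries all stayed below 0, and their median log2 change moved from -1.02 to -0.68. The 31 GC-rich triplets tested in that fit were all below 0, with a median of -0.54. Without primed library 3 the primed group held primed library 1 and the same shallow primed library 2. There 33 of the 36 were called lower again, among 42 members in all. Over all entries 430 were called in either direction without primed library 3. Ribosomal RNA, for comparison, stood at 161275 CPM in primed library 1 and between 1904 and 88891 CPM in the other 5 libraries. With alpha satellite and ribosomal RNA removed before scaling, all 36 lower calls were made again, among 43 in all. Without naive library 3, 27 of 287 tested members were called lower and 1 higher, (GAAG)n, which was named after its values were seen, against 5.97% lower and 9.02% in either direction over all entries. With primed library 1 and naive library 3 both left out, an alternative chosen after seeing the data, 7 of the 36 were called lower again, among them (TTAA)n with -1.10 and (GGAC)n with -1.62, and 4 members were called higher. Over all entries 1.39% were lower, 1.73% higher and 3.13% called either way in that fit.

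**Figure D3:**
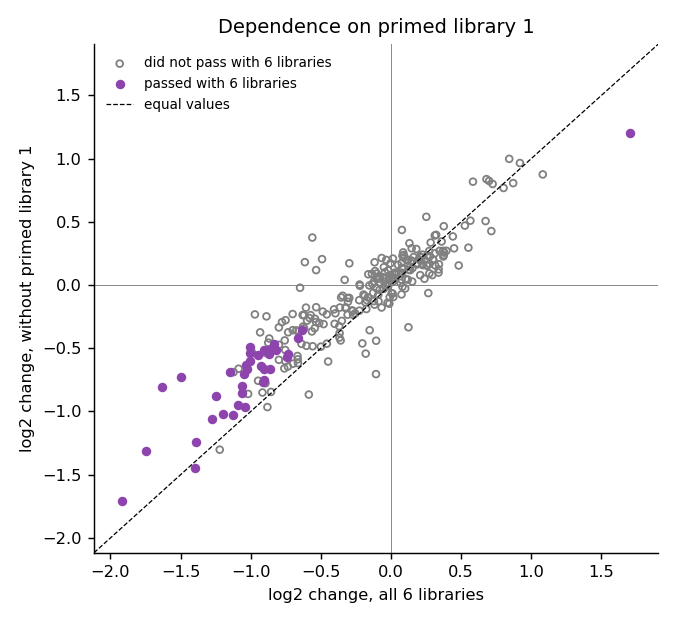
log2 change of each tested member without primed library 1 (vertical) against that with all 6 libraries (horizontal), with a dashed line of equal values. The 36 entries called lower stay below 0, and 35 of them lie closer to 0 than with 6 libraries.

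Among the triplets, (GCG)n, a rotation of the CGG repeat of the FMR1 gene, showed the smallest p. Its levels were 110, 111 and 80.2 CPM in naive 1 to 3, compared with 257, 201 and 168 CPM in primed 1 to 3. The highest naive library lay below the lowest primed one. It fell by 1.06 in log2 units, with an SE of 0.19 (edgeR adjusted p = 0.0108), and the value was -0.85 without primed library 1 (adjusted p = 0.0804). The other 2 rotations on that strand did not pass, (CGG)n with -0.74 (edgeR adjusted p = 0.0929) and (GGC)n with -0.75 (edgeR adjusted p = 0.125).

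(CGT)n, one of the 3 most abundant triplets, was at 293, 206 and 157 CPM in naive libraries and 499, 364 and 463 CPM in primed libraries. The groups did not overlap, with naive library 3 the lowest. It fell by 1.04 (log2, SE 0.21; edgeR adjusted p = 0.0156), and gave -0.97 without primed library 1 (adjusted p = 0.0931). Nearly all RNA of this pair of strands was counted on the CGT side, where the ACG side held between 1.17% and 3.60% of the pair.

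Among triplets of C and T alone, 5 fell, and these include each rotation of the CCT unit. (CCT)n, named after its values were seen, was at 148, 137 and 154 CPM in naive and 418, 196 and 258 CPM in primed libraries. Naive libraries were close together, and primed library 1 stood above the other primed ones. The change was -1.05 ± 0.22 (log2, SE; edgeR adjusted p = 0.0164), and -0.70 without primed library 1 (adjusted p = 0.0877). (TTC)n, the reverse complement of the GAA repeat that is expanded in Friedreich ataxia, was at 137, 117 and 126 CPM against 314, 207 and 188 CPM. Its groups did not overlap, and it fell by 0.93 (log2, SE 0.19; edgeR adjusted p = 0.0156), with -0.64 without primed library 1 (adjusted p = 0.0969). (GAA)n itself was at 51.0, 30.6 and 26.4 CPM against 67.4, 44.8 and 42.1 CPM, with overlapping groups (log2 -0.58 ± 0.27; edgeR adjusted p = 0.168).

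(TCA)n had the largest fall among triplets with a mean of at least 5 CPM. It was at 108, 74.8 and 86.3 CPM in naive and 287, 123 and 152 CPM in primed libraries. The groups did not overlap, although primed library 1 was far above the other primed libraries. The change was -1.15 ± 0.26 (log2, SE; edgeR adjusted p = 0.0219), and -0.69 without primed library 1 (adjusted p = 0.151). (CAG)n, the repeat expanded in Huntington disease, was at 77.7, 66.1 and 71.9 CPM against 164, 72.7 and 111 CPM. Naive library 1 lay above primed library 2, so the groups overlapped. It fell by 0.82 (log2, SE 0.20; edgeR adjusted p = 0.0290), with -0.51 without primed library 1 (adjusted p = 0.227). Its reverse complement (CTG)n, the repeat of myotonic dystrophy type 1, gave -0.54 ± 0.19 (edgeR adjusted p = 0.0757).

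Among 14 units with a known link to disease or to DNA-binding factors, all tested, (TTC)n and (CAG)n fell, 0 rose and 12 missed the threshold; the median log2 change over the 14 was -0.06. The called share of 14.3% was near the 12.7% over all entries. The list was written with earlier results of these data known. (GGAA)n, which ETS-family fusion proteins bind in Ewing sarcoma, was at 10.1, 15.1 and 14.5 CPM in naive and 13.3, 11.2 and 12.2 CPM in primed libraries (a log2 change of 0.08 ± 0.26; edgeR adjusted p = 0.866). These levels overlapped, and in primed library 2 the value is below that of 3 counts. (GATA)n, whose unit holds the core motif of GATA factors, had a log2 change of 0.26 ± 0.24 (edgeR adjusted p = 0.493). (CCTG)n, the repeat of myotonic dystrophy type 2, had 0.01 ± 0.26 (edgeR adjusted p = 0.994).

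Dinucleotide repeats are common microsatellites of the human genome, and of these only (GC)n passed. (AC)n was at 1021, 1051 and 1092 CPM in naive and 1089, 811 and 1065 CPM in primed libraries. The groups overlapped, with primed library 2 the lowest (log2 0.08 ± 0.14, SE; edgeR adjusted p = 0.704). The other 9 units of 2 different bases, apart from those of C and G, had log2 changes from -0.09 in (AG)n to 0.15 in (AT)n and did not pass. With library size as the only scaling, which lowered the median of all entries to -0.61, 6 of these units were called lower. (GC)n was at 11.03, 12.99 and 11.65 CPM in naive and 24.9, 28.0 and 18.7 CPM in primed libraries. The groups did not overlap, and it fell by 0.91 (log2, SE 0.23; edgeR adjusted p = 0.0302). The 28.0 CPM of primed library 2 rests on few counts, as 3 counts there are worth 16.8 CPM. The call was lost without primed library 1 (-0.75, adjusted p = 0.241) and without naive library 3 (-0.86, adjusted p = 0.0833). Its rotation (CG)n gave -0.88 ± 0.27 (edgeR adjusted p = 0.0528).

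Runs of a single base did not pass. (T)n, the most abundant of them, was at 2239, 2003 and 1865 CPM in naive and 3107, 2226 and 2295 CPM in primed libraries (a log2 change of -0.32 ± 0.15, SE; edgeR adjusted p = 0.163). (A)n was at 1604, 1390 and 1275 CPM against 2339, 1628 and 1638 CPM (log2 -0.40 ± 0.16; edgeR adjusted p = 0.122). All naive values of (A)n were below the primed ones, while those of (T)n overlapped by naive library 1. (TT)n, which is the same run written as 2 bases, gave -0.56 ± 0.18 (edgeR adjusted p = 0.0573). Alu elements, which carry such runs, had 0 calls among 46 tested and a median of -0.18. (C)n and (G)n gave -1.12 ± 0.54 (edgeR adjusted p = 0.178) and -0.93 ± 0.56 (edgeR adjusted p = 0.271), with naive library 3 far below the other libraries, as were the pyrimidine units described after the 4-base units.

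Of the 4-base units, (TTAA)n had the smallest p of all members. It was at 70.6, 43.6 and 39.3 CPM in naive and 155, 95.1 and 128 CPM in primed libraries. The groups did not overlap, and the change was -1.39 ± 0.23 (log2, SE; edgeR adjusted p = 0.00959), or -1.24 without primed library 1 (adjusted p = 0.0656). Its other 3 rotations did not pass: (AATT)n gave 0.37 ± 0.22 (edgeR adjusted p = 0.274), (ATTA)n 0.27 ± 0.25 (0.484) and (TAAT)n 0.13 ± 0.23 (0.727). In counts, (TTAA)n had 621, 487 and 560 in naive and 1226, 17 and 1289 in primed libraries, against 179, 290 and 289 and 120, 3 and 192 for (AATT)n. Of these rotations only (TTAA)n passed; how its counts spread over genomic copies was not analysed here.

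No test of a difference between rotations was made. Among 82 units with at least 2 tested rotations on a strand, the median gap between the highest and the lowest log2 change was 0.52, and it was 1.76 for the TTAA unit; these gaps include the error of each entry. (GGAC)n had the largest fall, at 8.08, 3.67 and 4.56 CPM in naive and 24.04, 11.2 and 18.4 CPM in primed libraries. It rests on 71, 41 and 65 counts against 190, 2 and 185, so the primed library 2 value is below that of 3 counts. The groups did not overlap (log2 -1.92 ± 0.34, SE; edgeR adjusted p = 0.0106; -1.71 without primed library 1, adjusted p = 0.0804).

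(GCTC)n was at 75.0, 44.9 and 38.7 CPM in naive and 128, 112 and 104 CPM in primed libraries, with no overlap (log2 -1.13 ± 0.23, SE; edgeR adjusted p = 0.0160). Like (GGAC)n, it holds a CpG at the junction between copies. (CACG)n and (CTCG)n, which also hold a CpG, fell by 1.27 and 1.20 (log2, SE 0.37 and 0.35; edgeR adjusted p = 0.0462 and 0.0463), from means of 14.7 and 8.69 CPM in primed libraries, with 4 and 2 counts in primed library 2. (CTCG)n is a rotation of (GCTC)n, so these entries are not independent units. (ACT)n, a triplet at 10.4, 6.45 and 5.19 CPM in naive and 17.1, 22.4 and 12.8 CPM in primed libraries, fell by 1.09 (log2, SE 0.33; edgeR adjusted p = 0.0499), just inside the threshold. Its 22.4 CPM in primed library 2 also rests on few counts. The one member called higher, (CAAC)n, had 28, 29 and 60 counts in naive and 4, 0 and 15 in primed libraries. The 0 in primed library 2 is uninformative, since 3 counts there are worth 16.8 CPM and the naive levels were 2.60 to 4.21 CPM. The change was 1.71 ± 0.49 (log2, SE; edgeR adjusted p = 0.0440), with 1.20 without primed library 1 (adjusted p = 0.337) and 1.52 without naive library 3 (adjusted p = 0.0939).

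The most abundant member, (TTTC)n, varied between libraries together with ribosomal RNA. It was at 3091, 4254 and 229 CPM in naive 1 to 3, compared with 7182, 1331 and 3004 CPM in primed 1 to 3. Naive library 3 stood lowest and primed library 1 highest, and the groups overlapped (log2 -0.61 ± 0.77, SE; edgeR adjusted p = 0.614). The large and small ribosomal RNA entries together were at 67297, 88891 and 1904 CPM and 161275, 26767 and 64591 CPM in the same order. Per 100 ribosomal RNA counts, (TTTC)n had 4.59, 4.79 and 12.03 counts in naive and 4.45, 4.97 and 4.65 counts in primed libraries. The ratio was thus nearly level in 5 libraries and higher in naive library 3, where ribosomal RNA was lowest.

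In all, 5 of the 213 members with a mean of at least 5 CPM were at least 4-fold lower in naive library 3 than in the mean of the other naive libraries, and 0 were 4-fold higher. They were (TTTC)n, (CTCC)n and (CCTC)n, each between 16.0-fold and 17.9-fold lower, and (C)n and (G)n, 6.63-fold and 6.46-fold lower. (CTCC)n was at 1455, 1614 and 86.8 CPM in naive and 2632, 638 and 1230 CPM in primed libraries (a log2 change of -0.53 ± 0.75, SE; edgeR adjusted p = 0.655). Per 100 ribosomal RNA counts it had 2.16, 1.82 and 4.56 counts against 1.63, 2.38 and 1.90. (CCTC)n had 1.43, 1.29 and 3.10 against 1.28, 0.899 and 1.23. Together these 5 units made up 20.3%, 25.2% and 2.19% of member counts in naive libraries and 29.3%, 12.3% and 17.05% in primed libraries.

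With primed library 1 and naive library 3 both left out, (TTTC)n and (CTCC)n were called higher in naive libraries (log2 0.70, edgeR adjusted p = 0.0120, and 0.63, 0.0251). Their direction thus changed with the libraries that entered. Without the 5 units, likewise an alternative added after the values were seen, naive libraries held 2.21%, 1.46% and 1.89% of counts as short simple repeats and primed libraries 3.63%, 3.23% and 3.53% (exact permutation p = 0.1). In the same subset the 3-base share was 24.9% ± 1.71 in the naive group and 31.6% ± 2.57 in the primed group (SD, n = 3 each, p = 0.1 by exact permutation). The 2-base and 4-base shares, higher in naive libraries by 4.75 and 3.29 points, then did not overlap either (exact permutation p = 0.1 for both). The 5 units were picked by their low values in naive library 3, so no conclusion is drawn from these separations. The shares of the lengths also add up to a fixed whole, and these p-values were not adjusted over the 4 lengths.

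**Figure D4:**
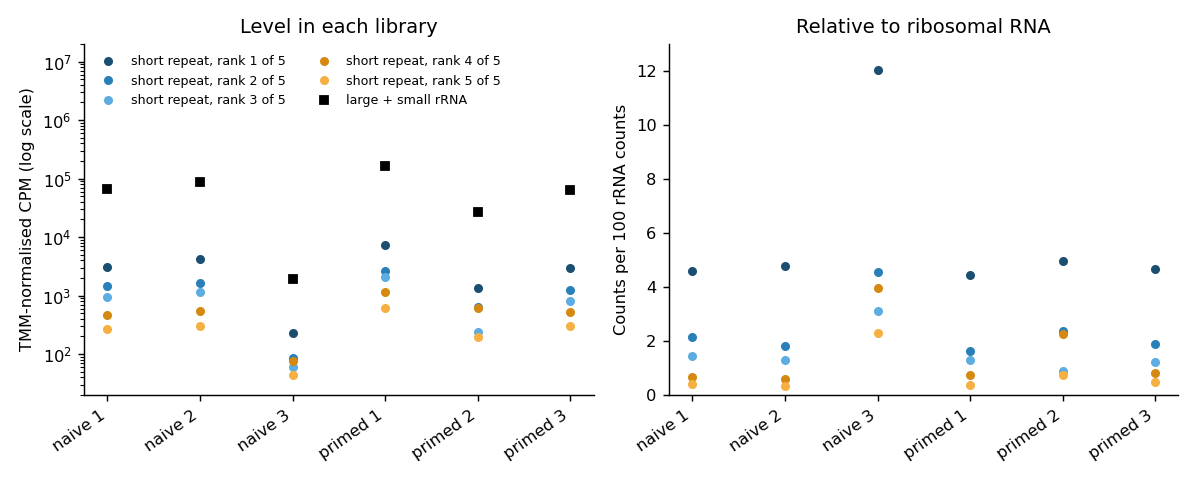
Left, TMM-normalised CPM on a log scale of the 5 members that were at least 4-fold lower in naive library 3 (circles, with rank 1 for (TTTC)n, rank 2 for (CTCC)n, rank 3 for (CCTC)n, rank 4 for (C)n and rank 5 for (G)n) and of large plus small ribosomal RNA (squares) in each library. Right, counts of the same 5 members per 100 ribosomal RNA counts; the top-ranked unit stays between 4.45 and 4.97 in 5 libraries and reaches 12.03 in naive library 3.

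A unit high in naive library 3 was (TTTA)n. It was at 238, 334 and 739 CPM in naive and 289, 157 and 253 CPM in primed libraries, with overlapping groups (log2 0.84 ± 0.35, SE; edgeR adjusted p = 0.127). Without naive library 3 the value was 0.25 (adjusted p = 0.463). Its reverse complement (TAAA)n was at 48.0, 42.7 and 39.0 CPM against 46.2, 22.4 and 38.8 CPM (log2 0.09 ± 0.19; edgeR adjusted p = 0.840).

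Each unit was then set against its reverse complement. All rotations on a strand were summed, the strand whose smallest rotation comes first in the alphabet was called the first strand, and its percent of the pair was compared between states. This comparison is made within a library, so scaling between libraries drops out. Of 45 such pairs with units of 1 to 4 bases, 42 were tested; 10 further units are their own reverse complement. No source used here states the strand setting of the counting, so a named strand is the strand of the annotated unit and not necessarily that of the RNA.

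Strand balance passed the test in 1 of 42 pairs. Over all 572 pairs of any unit length 1.92% were called, 11 in all. At an unadjusted p under 0.05 there were 3 short pairs. With the percentages, 11 of 42 pairs did not overlap between the states (26.2%, background 18%), 5 with a higher and 6 with a lower first strand in naive libraries. Several of these rest on very few counts in primed library 2. There AAGT with ACTT and ACGG with CCGT each had 2 and 0 counts. ACGC with CGTG had 4 and 0, and ACTC with AGTG 1 and 1. The excess over the background was not tested.

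The changed pair was AAGT with ACTT. The AAGT side held 50.6%, 39.9% and 53.5% of the pair in naive and 81.4%, 100% and 68.8% in primed libraries, so the groups did not overlap. The 100% in primed library 2 rests on 2 counts, all on the AAGT side. The log2 ratio of the strands changed by -1.77 ± 0.36 (SE; edgeR adjusted p = 0.0325). The pair had 2040 counts over all libraries, most of the AAGT side coming from (AGTA)n, with 115, 87 and 141 counts in naive and 352, 1 and 184 in primed libraries. (AGTA)n itself gave -1.50 ± 0.39 (log2, SE; edgeR adjusted p = 0.0302), and its reverse complement (TACT)n -0.05 ± 0.39 (edgeR adjusted p = 0.944). The strand call was lost without any library other than primed library 3, with values from -1.94 to -1.31 and adjusted p from 0.0559 to 0.345. Limma on log2 ratios gave 0 short pairs past the threshold and 1 at an unadjusted p under 0.05.

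Several pairs were unevenly divided between strands in both states. AC against GT was close to even, with 48.7% to 49.0% on the AC side in naive and 47.3% to 49.4% in primed libraries. A held 40.6% to 41.7% against T in naive and 41.6% to 42.9% in primed libraries. AG held 24.98% to 27.3% against CT in naive and 24.5% to 30.1% in primed libraries. AAG held 16.0% to 18.6% against CTT in naive and 14.1% to 14.9% in primed libraries, without overlap (log2 ratio 0.31 ± 0.18, SE; edgeR adjusted p = 0.377). In these pairs of A, AG and AAG the pyrimidine side was thus the larger in every library. CCCG held 98.6% to 99.2% against CGGG over all 6 libraries.

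The AAAG and CTTT pair depended on one library. AAAG held 3.87% and 2.69% in naive libraries 1 and 2, 21.4% in naive library 3, and 1.54%, 6% and 3.55% in primed libraries (log2 ratio 1.08 ± 0.76, SE; edgeR adjusted p = 0.486). AGGG against CCCT had the same form, at 1.28%, 1.18% and 14.7% in naive and 1.10%, 2.79% and 2.15% in primed libraries (log2 ratio 0.69 ± 0.89; edgeR adjusted p = 0.716). The CTTT side holds (TTTC)n, while the CCCT side holds (CTCC)n and its rotation (CCTC)n. (GAAA)n, on the purine side, was at 40.04, 38.6 and 36.9 CPM in naive and 36.4, 33.6 and 32.7 CPM in primed libraries (a log2 change of 0.16 ± 0.16, SE; edgeR adjusted p = 0.531), with no low value in naive library 3.

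The strand pairs of the disease-linked triplets CAG, CGG and GAA did not pass, the last given above as AAG against CTT. The AGC side, which holds CAG, kept 45.5% to 47.6% in naive and 39.0% to 47.4% in primed libraries (log2 ratio 0.07 ± 0.18, SE; edgeR adjusted p = 0.869). CCG held 57.2% to 69.0% against CGG in naive and 59.3% to 66.5% in primed libraries (log2 ratio 0.15 ± 0.20; edgeR adjusted p = 0.736). Outside the linked units, ACT held 71.5%, 59.1% and 56.6% against AGT in naive and 79.4%, 77.8% and 68.2% in primed libraries (log2 ratio -0.79 ± 0.34; edgeR adjusted p = 0.257), and these overlapped. The 77.8% in primed library 2 rests on 7 ACT and 2 AGT counts. The 4-base pair ACCT against AGGT, also outside the linked units, gave 0.84 ± 0.27 (edgeR adjusted p = 0.127). Neither passed.

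**Figure D5:**
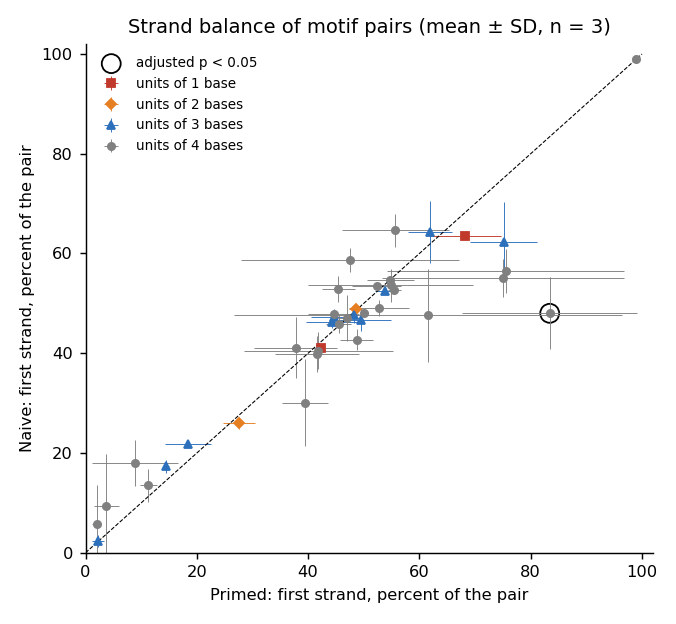
Percent of each motif pair on its first strand in naive (vertical) and primed libraries (horizontal), as mean ± SD over 3 libraries, for the 40 tested pairs with a value in every library. Most pairs lie along the dashed line of equal values, and the circled pair is the one that passed the test.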

How the data were processed

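RNA of the chromatin fraction was sequenced after directional library preparation, per the labels' protocols. The submitters' processing notes name Trimmomatic 0.39, STAR 2.7.8a, featureCounts and Subread 2.14.2. The genome build, repeat annotation, strand setting and handling of multi-mapping reads are not given in any source used here, and repeats of like sequence can share reads. The deposited values are raw counts per repeat name; 0 columns were left unmapped. Members, unit lists and tests were chosen with earlier results of these data known.

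The test for entries was the quasi-likelihood F-test of edgeR 4.0.16 (R 4.3.3) after TMM scaling and filterByExpr, adjusted over 3219 entries. The SE is the log2 change divided by the square root of F. TMM factors were 0.903, 0.628 and 0.855 in naive and 1.10, 1.51 and 1.24 in primed libraries. Strand pairs (at least 10 counts on each strand) were tested by edgeR as strand by state, with the library as a block. Named entries are all units of 1 or 2 bases, the 3 most abundant of 3 and of 4 bases, the 8 largest calls each way (at 0.05, with groups that do not overlap and a mean level of 5 CPM or more), the 14 linked units and the strand pairs of smallest p. Among others, (CAAC)n, the member called higher, (AGTA)n, (CCT)n, the unit (CCTC)n and the rotations or opposite strands of named units were chosen after their values were seen.

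On counts simulated for the entry test, edgeR called 61.1% of the 2-fold and 95.6% of the 4-fold changes among 3129 simulated entries, with 2 false calls in 147. For the strand test 90.9% of 4-fold changes were called among 559 simulated pairs, with 3 false calls in 143. Strand counts were drawn with counting error alone and entry counts with the fitted spread, so no simulated library deviated as a whole. The further spread of strand shares between real libraries was left out, so these rates need not hold for the real data. Alternatives used DESeq2 1.42.0 and limma 3.58.1; figures used matplotlib 3.10.9 in Python 3.11.15.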

Additional observations from a re-analysis of the deposited data

How the results depend on the processing

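The number of members called lower, 36, was 132 with library size alone, 60 with TMM factors from entries that are not simple repeats, 62 without a filter, 63 with the replicate block, 15 with rotations summed and 0 with all libraries thinned to the total of primed library 2, where 72 members remained testable and 21 were lower and 0 higher at an unadjusted p under 0.05. Without 1 library it ranged from 0 (primed library 1) to 46, with 16 without naive library 2. With primed library 1 and naive library 3 both left out it was 7. DESeq2 called 25. Calls over all entries, in either direction, moved as well, from 409 in the main fit to 1079 with library size alone. They were 449 with TMM factors from entries that are not simple repeats, 860 without a filter and 638 with the replicate block. DESeq2 gave 199 and thinning 3. The 15 with rotations summed were found among 94 tested sums, each of all rotations on a strand, so they do not count members. The number called higher, 1, was 0 with library size alone, with TMM factors from entries that are not simple repeats, with DESeq2, thinned or with rotations summed, 3 without a filter or with the replicate block, and 4 without primed library 1 and naive library 3; without 1 library it ranged from 0 to 2. The number of strand pairs called, 1, was 0 with limma, thinned, with the replicate block by strand, with pairs of 1 to 4 bases alone and without primed library 1 and naive library 3, and ranged from 0 to 1 without 1 library.

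The difference in the share of counts in members, naive minus primed, was -2.14 percentage points of all counts. Taken of the counts of all simple repeats, a different whole, it was 0.173 points (exact permutation p = 0.9). The 4-base share, 1.54 points, ranged from -1.58 to 5.004 without 1 library. With library size alone (TG)n and (TA)n were called lower (-0.66 for both), and (TTTC)n and (CTCC)n were called higher without primed library 1 and naive library 3 (0.70 and 0.63). Of 718 values of 43 named entries under alternatives, 602 kept their side of the threshold, 46 lost and 66 gained a call. The other 4 changed sign with a call in the main fit, the alternative or both. Among the 602, 73 changed sign with no call in either fit. The cause of these shifts was not tested.

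Same-numbered naive and primed libraries deviated together only weakly (correlations of 0.123, 0.0681 and 0.0571 over tested entries), so the numbers were not taken as pairs, although each library correlated best with its own number. Depth limits primed library 2, where a member under 16.8 CPM rests on fewer than 3 counts.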
